A study of Mus musculus with 9 samples.

Results

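The intestinal miRNAs miR-192, miR-194 and miR-215 come from 2 small gene clusters, and their mature arms were followed in mouse colon during chemical colitis. The members were taken by name: both arms of miR-192, both arms of miR-215, miR-194-5p and the 3p arms of the 2 miR-194 precursors. All 7 were present among the 1155 entries of the deposited table, and all 7 passed the filter on low counts, which left 433 entries. Small RNAs of whole colon were sequenced in 9 wild-type C57BL/6J mouse samples, 3 in each group. The DSS_RJA group drank 2.5% (w/v) dextran sulfate sodium (DSS), a polysaccharide that injures the colon lining, and was gavaged daily with royal jelly acid (RJA) at 10 mg/kg, in a volume of 0.2 mL. The DSS group drank 2.5% DSS, with no gavage recorded, so that RJA cannot be told apart from gavage. Control mice ate and drank normally. The labels give no age, and they do not tie samples to separate animals, so p-values reflect sample-to-sample spread, which may be technical.

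MiRNAs are cut from a hairpin whose 5p and 3p arms pair with each other; the arm that is mostly kept in Argonaute is called the guide and the other the passenger. miR-192 and miR-194 are abundant in intestinal epithelium. In human cells miR-192 and miR-215 are induced by p53 and slow the cell cycle, and miR-194 is regarded as a marker of differentiated gut epithelium. A guide finds its targets mainly through its seed, bases 2 to 8.

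The cluster on chromosome 1 holds Mir194-1 (185313319 to 185313385) and Mir215 (185313581 to 185313692), both on the plus strand and 195 bases apart. The cluster on chromosome 19 holds Mir194-2 (6264643 to 6264728) and Mir192 (6264844 to 6264932), also on the plus strand and 115 bases apart. Coordinates are those of GRCm38; no source used here gives the build used by the authors. In the GENCODE M21 annotation Mir194-1 lay in an intron and Mir215 in an exon of the noncoding transcript 2010103J01Rik on the same strand, and both lay opposite an intron of Iars2. Mir194-2 and Mir192 overlapped no other annotated gene, and the nearest protein-coding genes were Atg2a before and Ehd1 after them.

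The mature sequences are shown because they decide which member can be assigned to which cluster (RefSeq, GRCm38.p6, 5′ to 3′, with the seed in capitals). The guide arms are these.
mmu-miR-192-5p: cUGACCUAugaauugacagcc
mmu-miR-215-5p: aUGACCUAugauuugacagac
mmu-miR-194-5p: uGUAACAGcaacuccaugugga
The passenger arms are these.
mmu-miR-192-3p: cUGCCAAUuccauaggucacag
mmu-miR-215-3p: uCUGUCAUucuguaggccaau
mmu-miR-194-1-3p: cCAGUGGAgcugcuguuacuuc
mmu-miR-194-2-3p: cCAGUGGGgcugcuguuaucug
miR-192-5p and miR-215-5p had the same seed, which no other mouse miRNA in the RefSeq table shared, and were identical at 18 of 21 positions. Counted from the 5′ end, with miR-192-5p first, they differed by C1A, A12U and C20A. How the authors counted a read matching more than 1 miRNA is not stated in the sources, so the split of reads between these 2 guides is uncertain.

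The hairpins of miR-194 show why its guide cannot be assigned to a cluster and its passengers can (arms in capitals, plus strand of GRCm38.p6).
Mir194-1, chr1:185313319-185313385: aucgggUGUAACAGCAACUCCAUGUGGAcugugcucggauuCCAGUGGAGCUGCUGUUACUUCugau
Mir194-2, chr19:6264643-6264728: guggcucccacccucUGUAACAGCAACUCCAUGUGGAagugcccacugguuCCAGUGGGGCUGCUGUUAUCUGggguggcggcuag
miR-194-5p was the same in both. The 3p arms, miR-194-1-3p and miR-194-2-3p, were identical at 18 of 22 positions and differed by A8G, C19U, U20C and C22G, with miR-194-1-3p first. The first of these changes lies in the seed.

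Library totals ranged from 5985153 to 8280980 reads. The smooth muscle miRNA miR-143-3p took 66.4% to 75.5% of each library. The DSS-exposed libraries did not form tight groups. The 7 members together took 5.27%, 2.61% and 0.570% of all reads in DSS_RJA 1, 2 and 3 and 0.485%, 2.44% and 0.742% in DSS 1, 2 and 3, against 5.92%, 5.63% and 6.77% in Control 1, 2 and 3. DSS_RJA 1 was thus close to the Control libraries and DSS_RJA 3 lay among the DSS libraries. Levels below are CPM, reads scaled to a library of 1000000 after TMM scaling, and values in a list follow library number.

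The most abundant member was mmu-miR-192-5p. Among all entries it was at rank 3, 3 and 14 in DSS_RJA and at rank 15, 3 and 10 in DSS, against rank 3 in each Control library. Its level was 46464, 18984 and 4414 CPM in DSS_RJA and 3676, 18321 and 5239 CPM in DSS, against 56397, 51755 and 65188 CPM in Control. All 6 DSS-exposed libraries lay below all 3 Control libraries, and the DSS_RJA libraries overlapped the DSS libraries.

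The guide made by both clusters, mmu-miR-194-5p, had 5534, 3397 and 470.1 CPM in DSS_RJA and 494, 2061 and 656 CPM in DSS, against 6194, 5567 and 5724 CPM in Control. The third guide, mmu-miR-215-5p, had 6857, 1807 and 469 CPM in DSS_RJA and 175, 1434 and 338 CPM in DSS, against 5379, 4944 and 6830 CPM in Control. In DSS_RJA 1 miR-215-5p was as high as in the highest Control library, while miR-192-5p in the same library was below every Control library. The spread within groups was wide for all 3 guides after DSS: the highest DSS_RJA library exceeded the lowest 10.5-fold for miR-192-5p, 11.8-fold for miR-194-5p and 14.6-fold for miR-215-5p. In Control these folds were 1.26, 1.11 and 1.38.

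Among the passengers, mmu-miR-215-3p was the most abundant, with 183, 145 and 18.0 CPM in DSS_RJA and 4.17, 48.8 and 14.5 CPM in DSS, against 151, 147 and 196 CPM in Control. miR-194-2-3p, from chromosome 19, had 53.1, 62.8 and 17.8 CPM in DSS_RJA and 3.43, 26.6 and 10.4 CPM in DSS, against 60.3, 48.5 and 56.5 CPM in Control. miR-192-3p had 20.3, 18.7 and 3.84 CPM in DSS_RJA and 1.84, 8.50 and 3.12 CPM in DSS, against 29.5, 22.3 and 23.4 CPM in Control. For each of these 3 passengers, all DSS libraries lay below all Control libraries and the DSS_RJA libraries overlapped the DSS libraries.

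The chromosome 1 passenger mmu-miR-194-1-3p was the member in which DSS_RJA and DSS separated. It had 133, 145 and 44 reads in DSS_RJA and 2, 14 and 13 reads in DSS, against 185, 172 and 176 reads in Control. These correspond to 25.0, 21.99 and 6.77 CPM in DSS_RJA and 0.245, 1.95 and 1.45 CPM in DSS, against 28.4, 23.1 and 28.8 CPM in Control. Every DSS_RJA library was above every DSS library, and DSS_RJA 1 fell within the range of Control. The exact 95% Poisson interval of the 2 reads in DSS 1 ran from 0.242 to 7.22 reads, so the level in that library is poorly determined. Intervals of this kind cover counting error only, since PCR copies are not independent molecules.

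**Figure D1:**
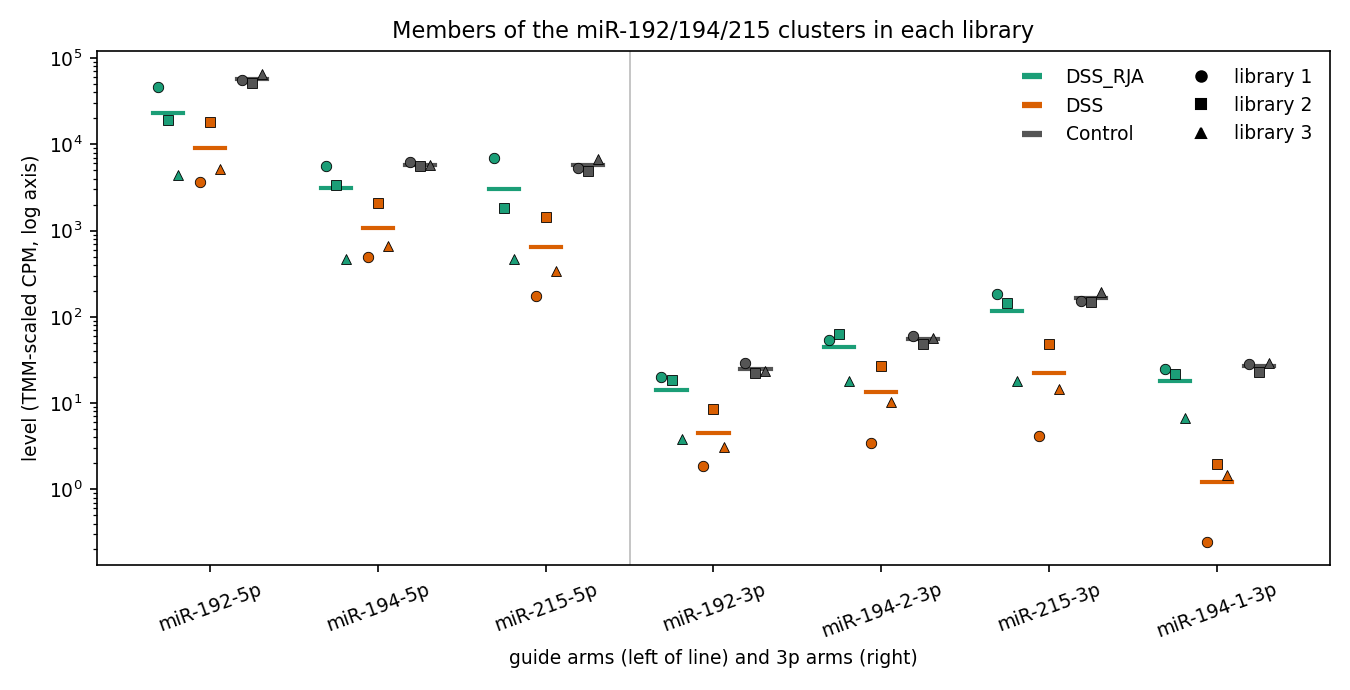
Level of each member in each library (TMM-scaled CPM, log axis), with DSS_RJA, DSS and Control from left to right; points are libraries, marked by number, and bars are group means (n = 3). All DSS libraries lie below all Control libraries for all 7 members, and only miR-194-1-3p has all DSS_RJA libraries above all DSS libraries.

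By mean level in Control the members followed the order miR-192-5p, miR-194-5p, miR-215-5p, miR-215-3p, miR-194-2-3p, miR-194-1-3p and miR-192-3p. All members are 21 or 22 bases long and the levels carry no term for length. miR-194-5p (5828 ± 327 CPM, SD, n = 3) and miR-215-5p (5717 ± 987 CPM) overlapped in Control and do not differ beyond their spread, and the same holds for miR-194-1-3p (26.7 ± 3.19 CPM) and miR-192-3p (25.0 ± 3.88 CPM). In every DSS library the last pair was in the opposite order, with 15, 61 and 28 reads of miR-192-3p against 2, 14 and 13 reads of miR-194-1-3p.

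The first comparison asked how DSS alone changed the clusters. miR-194-1-3p fell in DSS relative to Control, with a log2 fold change of -4.45 ± 0.62 (standard error; edgeR quasi-likelihood test, adjusted p = 0.00585), and had the lowest log2 fold change of the 433 entries. It was the 1 member of 7 that passed, against 3.93% of the entries tested that were called and 1.62% that were called lower. The log2 fold changes of the other 6 were -3.14 ± 0.97 for miR-215-5p, -2.88 ± 0.90 for miR-215-3p, -2.67 ± 0.80 for miR-192-5p, -2.49 ± 0.64 for miR-192-3p, -2.45 ± 0.78 for miR-194-5p and -2.04 ± 0.64 for miR-194-2-3p. None of these passed, with edgeR adjusted p of 0.0554 for miR-192-3p and 0.0748 or 0.0749 for the others. In all 7 the DSS libraries lay below the Control libraries without overlap, as did 22.6% of all entries tested; all 7 had an unadjusted p under 0.05, as did 17.8% of all entries in that direction. The median log2 fold change was -2.67 over the members and 0.01 over all entries.

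How many members were called in DSS against Control rested on which DSS-exposed libraries were in the fit. Without DSS 2, the DSS library with the highest levels of all 7 members, or without DSS_RJA 3, all 7 members were called. Calls over all entries rose too, to 46 of 450 without DSS 2 and 90 of 449 without DSS_RJA 3, against 17 of 433 in the main fit. Leaving out DSS 2 also moved the log2 fold changes of the other 6 members, to -4.44 for miR-215-5p, -4.09 for miR-215-3p, -3.66 for miR-192-5p, -3.31 for miR-194-5p, -3.28 for miR-192-3p and -2.95 for miR-194-2-3p. Without DSS_RJA 1, 4 members were called: both arms of miR-192, miR-215-5p and miR-194-1-3p. In that fit 47 of 453 entries were called. miR-194-1-3p was called in all 17 alternative fits, with log2 fold changes from -4.88 to -3.96 and adjusted p up to 0.0332.

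The second comparison asked how RJA given with DSS differed from DSS alone. miR-194-1-3p rose in DSS_RJA relative to DSS, by 3.87 ± 0.61 on the log2 scale (edgeR adjusted p = 0.0389), and was the only entry called (0.231% of those tested). It was also the 1 member of 7 whose groups did not overlap, against 6.00% of all entries that were higher without overlap. The other log2 fold changes were 2.37 ± 0.88 for miR-215-3p, 2.23 ± 0.93 for miR-215-5p, 1.73 ± 0.64 for miR-194-2-3p, 1.68 ± 0.63 for miR-192-3p, 1.55 ± 0.75 for miR-194-5p and 1.36 ± 0.76 for miR-192-5p. Their edgeR adjusted p ranged from 0.229 to 0.421. An unadjusted p under 0.05 was reached by 5 members and by 8.55% of all entries in that direction. The median was 1.73 over the members and 0.02 over all entries. The call of miR-194-1-3p was lost when any 1 library other than DSS_RJA 3 was left out, with adjusted p from 0.0610 without DSS 2 to 0.173 without DSS 3. It was 0.00141 without DSS_RJA 3. The call was also lost with limma-voom (adjusted p = 0.115), with only the pair of groups in the fit (edgeR adjusted p = 0.204) and with the replicate block (edgeR adjusted p = 0.139), while the log2 fold change stayed between 3.38 and 4.30 in all 17 alternative fits. The fold changes of the guides rested on single libraries: without DSS_RJA 1 they were 0.38 for miR-192-5p, 0.83 for miR-215-5p and 0.87 for miR-194-5p. In that fit the passengers moved less, to 1.35 for miR-192-3p, 1.60 for miR-194-2-3p and 1.89 for miR-215-3p. Without DSS 2 the same 3 guides were at 2.34, 3.52 and 2.40, and the other 3 passengers at 2.46 to 3.57. This comparison shares the DSS libraries with the first.

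The third comparison asked what remained different from untreated colon when RJA was given with DSS. The members had log2 fold changes from -1.31 ± 0.76 for miR-192-5p to -0.31 ± 0.61 for miR-194-2-3p, all negative, with a median of -0.82 against 0.03 over all entries. No member passed (edgeR adjusted p of 0.432 to 0.837), none had an unadjusted p under 0.05 against 14.3% of all entries, and no entry of the 433 was called (0% called). By DESeq2 and limma-voom no member was called either. miR-192-5p, miR-192-3p and miR-194-5p were lower in all 3 DSS_RJA libraries than in all 3 Control libraries, as were 11.5% of all entries. This comparison shares its libraries with the other two. These values rested on which DSS_RJA libraries were in the fit. Without DSS_RJA 1 the log2 fold changes were -2.28 for miR-215-5p, -2.26 for miR-192-5p, -1.54 for miR-194-5p and -0.96 for miR-215-3p. Without DSS_RJA 3 they were -0.41, -0.82, -0.38 and 0.011 for the same 4 members, and 0.10 for miR-194-2-3p. For miR-192-3p and miR-194-1-3p they were -1.10 and -0.85 without DSS_RJA 1, and -0.34 and -0.17 without DSS_RJA 3. miR-194-2-3p was at -0.40 without DSS_RJA 1.

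**Figure D2:**
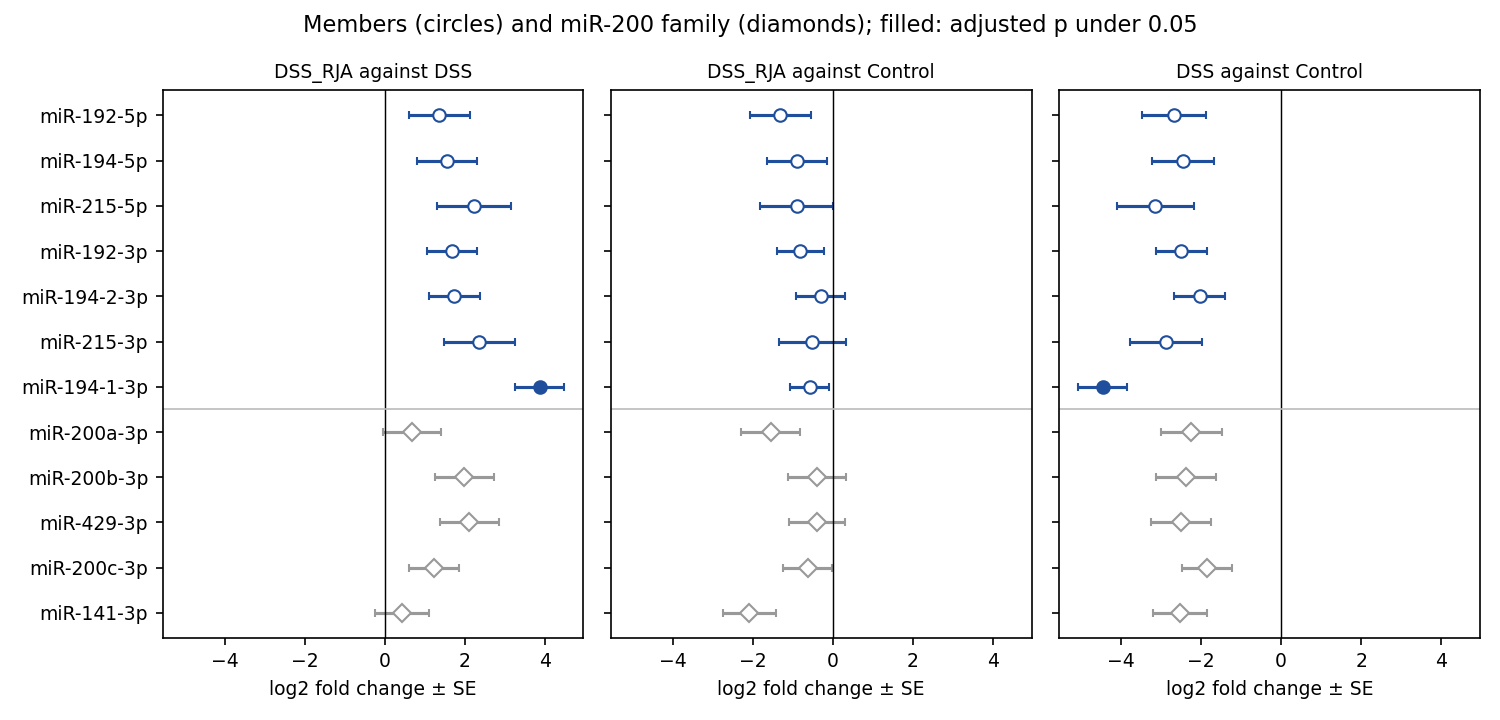
Log2 fold change with standard error from the edgeR fit, in 3 comparisons, for the 7 members (circles) and the 5 miR-200 family guides (diamonds); filled symbols passed at an adjusted p of 0.05. Only miR-194-1-3p is filled, at 3.87 in DSS_RJA against DSS and at -4.45 in DSS against Control.

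Reads within a library were then compared between the clusters, since such ratios do not depend on how libraries are scaled. In all, 11 ratios were tested with an exact permutation test over the 3 groups, whose smallest possible p is 0.00357, and adjusted by the Benjamini-Hochberg method. Pairs of groups cannot give an exact two-sided p under 0.1 with 3 against 3, so the differences between pairs are given as values.

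Among the ratios between clusters, the largest difference lay in the 3p arms of miR-194. It describes these 2 arms and not each cluster as a whole. Of the reads on both arms, miR-194-1-3p took 32.0% (27.5% to 36.7%), 25.9% (22.4% to 29.8%) and 27.5% (20.7% to 35.1%) in DSS_RJA 1, 2 and 3, with exact 95% binomial intervals. It took 6.67% (0.818% to 22.1%), 6.83% (3.78% to 11.2%) and 12.3% (6.69% to 20.1%) in DSS 1, 2 and 3. In Control 1, 2 and 3 it took 32.0% (28.2% to 36.0%), 32.2% (28.3% to 36.4%) and 33.7% (29.7% to 38.0%). The 3 DSS libraries thus stood apart from all 6 others, while DSS_RJA 1 was level with Control 1 and the other 2 DSS_RJA libraries were below Control.

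As a ratio, miR-194-2-3p exceeded miR-194-1-3p by 1.33 ± 0.22 on the log2 scale in DSS_RJA and 3.34 ± 0.49 in DSS, against 1.04 ± 0.06 in Control (SD, n = 3). The 3 groups differed (exact permutation p = 0.00357, the smallest the test can give; adjusted p = 0.0196 over the 11 ratios). DSS exceeded Control by 2.30, a 4.92-fold higher ratio, and DSS_RJA differed from DSS by -2.01, a 4.04-fold lower ratio. Left out in turn, each of the 3 Control libraries took the adjusted p to 0.0786, with a difference between DSS and Control of 2.26 to 2.32. The ratio in DSS rests on 30, 205 and 106 reads over both arms.

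The guides pointed the same way by a smaller amount. miR-215-5p took 12.9%, 8.69% and 9.61% of the reads of miR-192-5p and miR-215-5p together in DSS_RJA and 4.54%, 7.26% and 6.05% in DSS, against 8.71%, 8.72% and 9.48% in Control, with exact 95% intervals at most 0.651 percentage points wide. Every DSS library was below every DSS_RJA and every Control library. The log2 ratio of miR-192-5p to miR-215-5p was 3.13 ± 0.33 in DSS_RJA and 4.01 ± 0.36 in DSS, against 3.34 ± 0.08 in Control (SD, n = 3). Its exact permutation p was 0.0143 and did not pass after adjustment (adjusted p = 0.0524). The adjusted p was 0.0393 without DSS_RJA 2, 0.144 without DSS_RJA 3, 0.170 without any 1 of the Control libraries and 0.204 with the replicate block. DSS exceeded Control by 0.66, a 1.59-fold higher ratio.

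The passengers of the same precursors, whose sequences are unlike, gave overlapping groups. miR-215-3p took 90.0%, 88.6% and 82.4% of the reads of miR-192-3p and miR-215-3p together in DSS_RJA and 69.4%, 85.2% and 82.3% in DSS, against 83.7%, 86.9% and 89.3% in Control. The share in DSS 1 rests on 49 reads, with an exact 95% interval of 54.6% to 81.7%; the widest of the other intervals are in DSS_RJA 3 (75.1% to 88.3%) and DSS 3 (75.4% to 87.9%). The log2 ratio of miR-192-3p to miR-215-3p differed by 0.76 between DSS and Control (exact permutation p = 0.189, adjusted p = 0.231), and by 0.36 without DSS 1, against the 0.66 seen for the guides. A difference of 0.76, larger than that of the guides, did not pass with this spread. The passengers therefore cannot show whether they shared the shift of the guides.

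**Figure D3:**
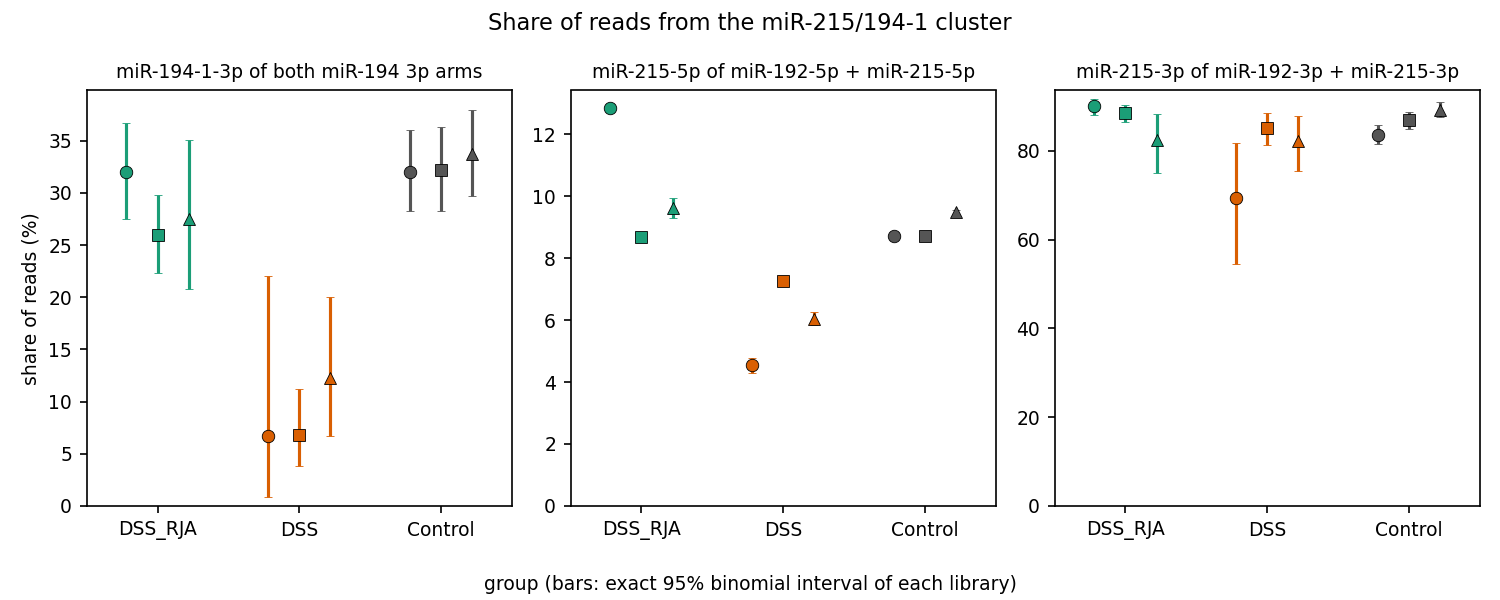
Share of reads (%) from the chromosome 1 cluster in each library, with exact 95% binomial intervals: miR-194-1-3p of both miR-194 3p arms, miR-215-5p of the miR-192-5p and miR-215-5p reads, and miR-215-3p of the miR-192-3p and miR-215-3p reads. Circles, squares and triangles are libraries 1, 2 and 3; the DSS libraries are lowest in the left and middle panels and overlap the other groups in the right panel.

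Within a cluster, the ratios of reads from the 2 neighbouring hairpins did not pass the test. miR-194-1-3p relative to miR-215-5p was -6.85 ± 1.09 on the log2 scale in DSS_RJA and -8.81 ± 0.88 in DSS, against -7.73 ± 0.16 in Control (SD, n = 3), with overlapping groups (exact permutation p = 0.0607, adjusted p = 0.134). miR-194-2-3p relative to miR-192-5p was -8.65 ± 0.98 in DSS_RJA and -9.48 ± 0.54 in DSS, against -10.03 ± 0.15 in Control (exact permutation p = 0.0821, adjusted p = 0.151). Between DSS and Control the first ratio differed by -1.08 and the second by 0.55. The guides miR-192-5p and miR-215-5p, from different clusters, differed by 0.66. Without DSS_RJA 1 both within-cluster ratios passed, at an adjusted p of 0.0262. The guide miR-194-5p relative to the other 2 guides was at -3.09 ± 0.41, -3.10 ± 0.15 and -3.44 ± 0.19 in DSS_RJA, DSS and Control (exact permutation p = 0.314, adjusted p = 0.346). The DSS libraries were above the Control libraries in that ratio without overlap, by 0.34.

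The guide arm dominated each hairpin, to a degree that differed between them. The 3p arm held 0.0436%, 0.0981% and 0.0870% of miR-192 reads in DSS_RJA and 0.04998%, 0.0464% and 0.0596% in DSS, against 0.0522%, 0.0430% and 0.0358% in Control. For miR-215 it held 2.60%, 7.45% and 3.69% in DSS_RJA and 2.33%, 3.29% and 4.12% in DSS, against 2.73%, 2.89% and 2.78% in Control. In every library, then, the passenger was a larger fraction of miR-215 than of miR-192. The exact 95% intervals of these shares were at most 0.0721 percentage points wide for miR-192 and 1.62 for miR-215.

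For miR-194 the 3p arms together held 1.39%, 2.43% and 4.97% of the reads in DSS_RJA and 0.739%, 1.37% and 1.77% in DSS, against 1.41%, 1.27% and 1.47% in Control, with intervals at most 1.53 percentage points wide. DSS_RJA 2 and DSS_RJA 3 were above all other libraries. The guide-to-passenger log2 ratio averaged 5.24 ± 0.95 in DSS_RJA and 6.33 ± 0.64 in DSS, against 6.16 ± 0.11 in Control (SD, n = 3; exact permutation p = 0.164, adjusted p = 0.226). For miR-192 it averaged 10.43 ± 0.64, 10.89 ± 0.19 and 11.17 ± 0.27 in DSS_RJA, DSS and Control, with the same permutation p and adjusted p. For miR-215 it averaged 4.52 ± 0.81, 4.93 ± 0.42 and 5.12 ± 0.04 (exact permutation p = 0.454, adjusted p = 0.454). Without DSS_RJA 1 the ratios of miR-192 (adjusted p = 0.0262) and miR-194 (adjusted p = 0.0449) passed, with the lowest ratios in DSS_RJA. Without DSS 1 the difference between DSS and Control for miR-194 was -0.18 in place of 0.18, and without DSS 3 that for miR-215 was 0.0073 in place of -0.19.

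**Figure D4:**
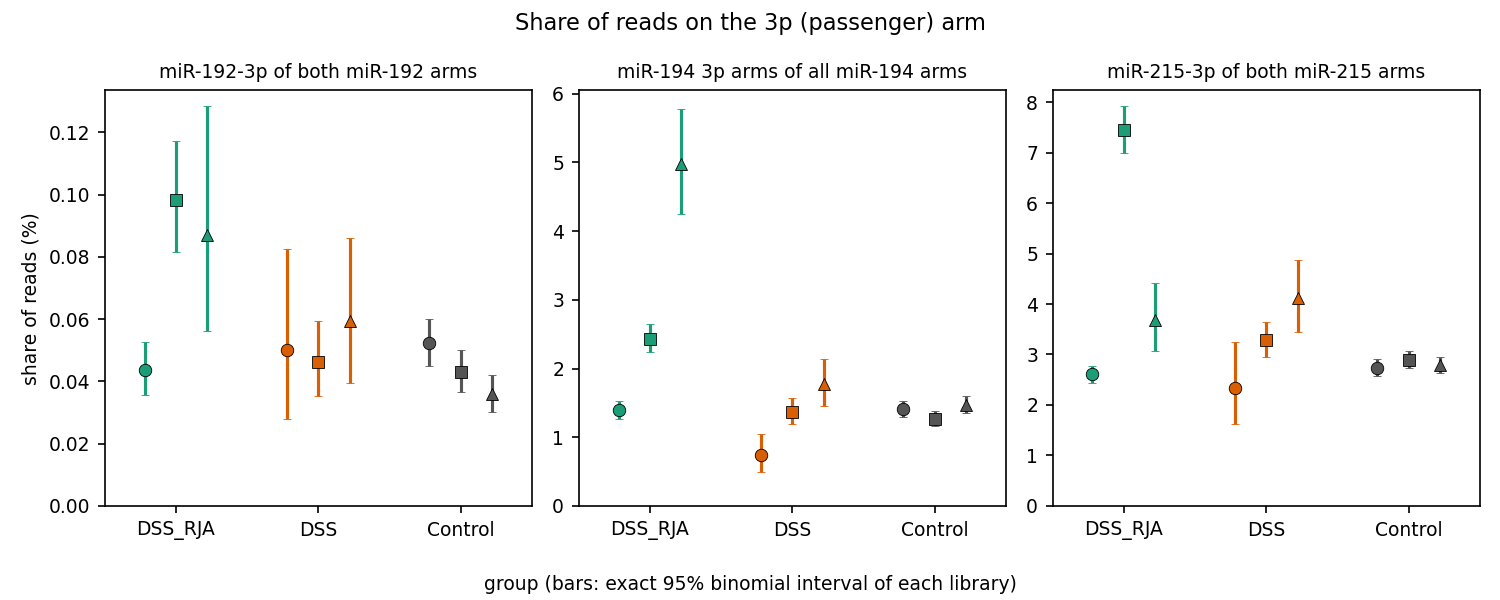
Share of reads (%) on the 3p, or passenger, arm of miR-192, miR-194 and miR-215 in each library, with exact 95% binomial intervals; circles, squares and triangles are libraries 1, 2 and 3. The Control libraries lie close together for miR-194 and miR-215 and run from 0.0358% to 0.0522% for miR-192. DSS_RJA 2 and DSS_RJA 3 lie above the Control libraries in all 3 panels, at up to 4.97% for miR-194 and 7.45% for miR-215.

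The miR-200 family, which maintains the epithelial state, served as a comparison from another set of epithelial miRNAs. The summed level of its 5 guides (miR-200a-3p, miR-200b-3p, miR-200c-3p, miR-141-3p and miR-429-3p) was 3729 to 32427 CPM in DSS_RJA and 2634 to 11668 CPM in DSS, against 27542 to 32296 CPM in Control. All 5 had negative log2 fold changes in DSS against Control, with a median of -2.39, and none was called (edgeR). In DSS_RJA against DSS all 5 were positive, with a median of 1.23 against 1.73 over the members. In DSS_RJA against Control all 5 were negative, with a median of -0.63. None was called in these comparisons either. Their part in the results of the members was not tested. In whole colon, fewer epithelial cells and less of these miRNAs per cell cannot be told apart.

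Relative to the miR-200 family, the mean of the 3 guides was 2.45 ± 0.30 on the log2 scale in DSS_RJA and 2.06 ± 0.26 in DSS, against 2.63 ± 0.03 in Control (SD, n = 3). All DSS libraries lay below all Control libraries, with a difference of -0.57, but the 3 groups did not differ after adjustment (exact permutation p = 0.05, adjusted p = 0.134). Without DSS_RJA 1 the adjusted p was 0.0262.

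miR-194-1-3p alone was then set against the same family. Relative to the miR-200 family it was -6.13, -5.50 and -4.92 on the log2 scale in DSS_RJA 1, 2 and 3 and -9.34, -8.58 and -7.35 in DSS 1, 2 and 3, against -6.15, -6.32 and -6.22 in Control 1, 2 and 3. The 3 groups followed one another without overlap, DSS lowest and DSS_RJA highest, but DSS_RJA 1 (-6.13) was almost level with Control 1 (-6.15). The exact permutation p was 0.00357 (adjusted p = 0.0196 over the 11 ratios), with a difference of -2.19 between DSS and Control, 2.91 between DSS_RJA and DSS and 0.71 between DSS_RJA and Control. The adjusted p was 0.0982 without any 1 of the Control libraries, 0.0917 without DSS_RJA 2 and 0.144 without DSS_RJA 3. This ratio was chosen with earlier results of these data known, and its p does not allow for that choice. Both ratios that passed hold miR-194-1-3p, so they are not independent.

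Entries outside the clusters were ranked by how constant their ratio to miR-192-5p was, measured as the SD over the 9 libraries of the difference in log2 CPM, among 242 entries with a mean of at least 10 CPM. The 6 most alike were miR-196a-1-3p (0.355), miR-200a-3p (0.440), miR-429-3p (0.483), miR-200b-3p (0.496), miR-141-3p (0.525) and miR-200c-3p (0.528), against a median of 1.67 over all entries. Among the members, miR-194-5p (0.283), miR-215-5p (0.468) and miR-192-3p (0.482) were as close, miR-215-3p (0.726) and miR-194-2-3p (0.826) less so, and miR-194-1-3p (1.46) ranked 52nd of the 242. For miR-194-1-3p itself the closest entries were its cluster neighbours miR-215-3p (0.943) and miR-215-5p (1.16), followed by miR-194-2-3p (1.19). Outside the clusters they were miR-429-3p (1.23), miR-200b-3p (1.25), miR-200b-5p (1.36), miR-200a-5p (1.36), miR-210-3p (1.39) and miR-183-5p (1.45), with a median of 2.46 over all entries. All of these libraries share the same 3 groups, so the values describe the libraries and carry no test.

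Markers of other cell types also differed in level between libraries, and their part in the results was not tested. The leukocyte list, 5 of 5 detected, summed to 233 to 1365 CPM in DSS_RJA and 1129 to 2050 CPM in DSS, against 508 to 630.2 CPM in Control. Over all libraries most of its reads were miR-150-5p (57361 reads, against 1349 to 6049 for each other entry of the list). The neutrophil miRNA miR-223-3p had a log2 fold change of 2.64 ± 0.68 in DSS against Control (edgeR adjusted p = 0.0554). The smooth muscle list, 6 of 6 detected, summed to 675354 to 782883 CPM in DSS_RJA and 616507 to 651562 CPM in DSS, against 776540 to 830381 CPM in Control. Most of each sum was miR-143-3p. Before TMM scaling its share of reads overlapped, at 68.3%, 67.2% and 75.5% in DSS against 70.9%, 69.3% and 66.4% in Control. The log2 fold changes of the list in DSS against Control ran from -0.70 to 0.20, with 5 negative and 1 positive. The mesenchymal list, 3 of 3 detected, summed to 789 to 1250 CPM in DSS_RJA and 1143 to 1415 CPM in DSS, against 856 to 1001 CPM in Control. The enteroendocrine miRNAs miR-375-3p and miR-7a-5p, which are made by a minority of epithelial cells, had log2 fold changes of -0.83 ± 0.72 and 0.65 ± 0.34 in DSS against Control. Since miR-192 and miR-194 are also abundant in liver, the hepatocyte miRNA miR-122-5p was checked, and it was at 1.501 to 3.03 CPM in DSS_RJA and 2.12 to 4.18 CPM in DSS, against 1.47 to 2.12 CPM in Control. No member of these 5 lists was called in any of the 3 comparisons.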

How the data were processed

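The 9 colon libraries were small RNA libraries, made per the labels' protocols by adaptor ligation and PCR, with inserts of 18 to 40 bp and reads of 50 bases. Bowtie and DESeq are named, with no role, in the submitters' processing notes. The authors deposited raw counts of reads for each mature miRNA, per the file headers. The deposited TPM values equalled each count scaled to a library of 1000000 (largest difference 4.66e-10) and served only for this check.

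Counts were tested with edgeR 4.0.16 in R 4.3.3: filterByExpr at a minimum count of 10, TMM scaling, and a quasi-likelihood fit of 3 group means over the 9 samples, with Benjamini-Hochberg adjustment over 433 entries (threshold 0.05). The tested entries held 99.99% of all counts. Standard errors are the fold change divided by the root of F. Within-library ratios used counts plus 0.5. Even the closest replicates, Control 1 and 2, had a chi-square of 40.2 per degree of freedom. The tests were tested on simulated data with equal spread in every group, which the members here did not have. Alternatives were DESeq2 1.42.0, limma-voom (limma 3.58.1), other scalings and filters, a pseudocount of 1, a replicate block and leaving out each library. The members, marker lists and ratios were chosen with earlier results of these data known. The text names all members, the marker lists and the 6 entries most alike.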

Additional observations from a re-analysis of the deposited data

How the results depend on the processing

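Members called in DSS against Control numbered 1, and 2 with library size alone or without miR-143-3p counts, 6 with limma-voom, and 7 with DESeq2, with no low-count filter or with only the pair of groups in the fit; leaving out single libraries gave 1 to 7. In DSS_RJA against DSS the number was 1, and 0 with limma-voom, with only the pair of groups or with the replicate block, 7 with no low-count filter, and 0 to 4 with single libraries left out. In DSS_RJA against Control it was 0, and 3 with no low-count filter. Over all entries, the calls in DSS_RJA against DSS were 1 of 433, 40 of 1155 with no filter and 37 of 449 without DSS_RJA 3, the fit with 4 members. In DSS_RJA against Control they were 0 of 433, and 19 of 1155 with no filter. The cause of these changes was not tested. Over all entries the calls in DSS against Control were 17 of 433, 73 of 433 with library size alone and 73 of 1155 with no filter. They were 65 of 433 with DESeq2, 38 of 433 with limma-voom and 27 of 433 without miR-143-3p counts. With the replicate block 4 of 433 were called, and with the pair of groups 88 of 416. Library size alone moved the median of all entries to 0.39 and all 7 members stayed negative.

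Leaving out single libraries gave these ranges for the log2 difference between DSS and Control: 0.47 to 0.83 for miR-192-5p over miR-215-5p, 0.36 to 1.04 for miR-192-3p over miR-215-3p, 2.11 to 2.57 for miR-194-2-3p over miR-194-1-3p, -0.42 to -0.15, -0.18 to 0.45 and -0.41 to 0.0073 for the arm ratios of miR-192, miR-194 and miR-215, 0.30 to 0.83 for miR-194-2-3p over miR-192-5p, -1.58 to -0.75 for miR-194-1-3p over miR-215-5p, -0.69 to -0.43 for the guides over the miR-200 family and -2.73 to -1.74 for miR-194-1-3p over it. A pseudocount of 1 changed no call of a ratio. Single members changed sign in 2 of 357 alternative fits, both in DSS_RJA against Control without DSS_RJA 3 (0.10 for miR-194-2-3p and 0.011 for miR-215-3p); leaving out single libraries gave -0.65 to 0.10 for miR-194-2-3p and -0.96 to 0.011 for miR-215-3p.

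The labels number the samples but do not pair them, and same-numbered libraries did not deviate together (correlations from -0.46 to 0.18). In the permutation with the replicate block, whose smallest p is 0.0278, the ratios of miR-194-2-3p to miR-194-1-3p (2.30) and of miR-194-1-3p to the miR-200 family (-2.19) had an adjusted p of 0.153, a limit of the few arrangements. Depth limits miR-194-1-3p most, with 2 to 14 reads in the DSS libraries.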
